A study of Homo sapiens with 8 samples.

Results

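Aminoacyl-tRNA synthetases are the enzymes that join each amino acid to its tRNA before translation. The genes described here are the 36 human synthetase genes of a fixed name list that were present in a deposited table of 25918 gene models. They comprise 20 genes for enzymes of the cytosol and 16 nuclear genes for enzymes of mitochondria. Each of the 36 symbols had 1 row in the table. GARS and KARS make both the cytosolic and the mitochondrial enzyme, and were counted with the cytosolic genes, as was QARS.

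The study mapped N6-methyladenosine (m6A), an internal methyl mark of mRNA, in human cultures labelled HepG2, a hepatocellular carcinoma line, under 4 treatments. One culture condition was UV irradiation at 0.04 J per square centimetre, harvested 4 h later. A second was heat shock at 43 °C for 30 min. The remaining conditions were overnight exposure to hepatocyte growth factor (HGF/SF) at 10 ng/ml or to interferon gamma (IFNg) at 200 ng/ml. For each treatment, polyA-selected RNA was fragmented, and 1 library was made from fragments pulled down with an anti-m6A antibody and 1 from the input, which gave 8 libraries. No untreated culture was analysed here and no treatment had a replicate, so every comparison sets 1 treatment beside the other 3 without a test.

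The expression value is the authors' quantile of a gene model among all models of that treatment, given here as a percentile from 0 to 100. Its heading leaves unstated if pull-down reads, input reads or both were ranked, and a rank that includes pull-down reads would also carry the m6A signal. It is a rank, so it carries neither an amount nor a read depth, and the depth of the libraries is unknown. In bulk RNA a lower rank cannot be split into fewer expressing cells and less RNA per cell. The hepatocyte markers went against the label: of 10 found, TTR was the sole gene that reached percentile 60 in any treatment, and 8 of the 10 were at the lowest rank of the table under UV, 4 under heat shock, 2 under HGF and 1 under IFNg. KRT7, an epithelial keratin, ranked between percentiles 99.2 and 99.8, and the fibroblast collagen COL1A1 between 60.7 and 83.6. Lymphocyte and endothelial markers in the list did not reach percentile 60. The part of the cell identity in the results below was not tested.

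Synthetases fall into 2 fold families, class I and class II, which share no ancestry in their catalytic domains. In the cytosol of animal cells, 8 of the genes listed here (DARS, EPRS, IARS, KARS, LARS, MARS, QARS and RARS) encode subunits of a multisynthetase complex held together by scaffold proteins, while most others work as free enzymes. Several cytosolic synthetase genes are known targets of ATF4, the transcription factor of the amino acid response, and WARS, the tryptophan enzyme, is a textbook gene of the IFNg response.

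WARS is the member with a known IFNg-responsive promoter, so its promoters are shown first. RefSeq places its transcripts on the minus strand of chromosome 14 (GRCh38.p14) with starts 980 nt apart. The 250 bases before each start are printed 5′ to 3′ on the gene's strand, and capitals mark matches to the interferon-gamma activated site TTCNNNGAA and to the interferon-stimulated response core whose letters are GAAA, any 2 bases and GAAA, searched on both strands.

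WARS upstream start, chr14:100376328-100376577: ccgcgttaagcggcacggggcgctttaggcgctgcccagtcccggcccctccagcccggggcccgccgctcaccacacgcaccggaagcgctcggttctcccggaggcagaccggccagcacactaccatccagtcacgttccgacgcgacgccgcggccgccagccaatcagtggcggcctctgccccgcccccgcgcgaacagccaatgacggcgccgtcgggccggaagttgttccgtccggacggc

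WARS downstream start, chr14:100375348-100375597: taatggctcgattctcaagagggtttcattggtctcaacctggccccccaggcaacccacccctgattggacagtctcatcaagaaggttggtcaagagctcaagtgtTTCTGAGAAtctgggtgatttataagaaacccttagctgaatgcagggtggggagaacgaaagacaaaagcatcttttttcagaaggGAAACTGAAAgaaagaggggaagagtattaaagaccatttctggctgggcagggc

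The upstream window had a GC content of 73.6% and held neither motif. The downstream window had a GC content of 47.2% and held both, the first at 142 to 134 bases and the second at 55 to 46 bases before the start. Over all 35116 promoter entries, 6.57% held the first motif and 3.02% the second. The first was also found in windows of TARS, PARS2 and WARS2, so 4 of the 30 members with a promoter entry held it, and the second also in EARS2, so 2 of 30 did. Some members have several entries, and over the 39 entries of members 15.4% held the first motif and 7.69% the second. The expression value does not separate the transcripts that use these starts, since the table holds 1 WARS model.

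The amino acid response element TGATGNAA, the kind of site that ATF4 and its partners bind, was found in the windows of AARS, GARS, IARS and YARS2, which are 4 of the 30 members with a promoter entry. Over all entries, 3.14% held it, and over the 39 entries of members 10.3%. DARS, LARS, VARS, YARS, AARS2 and VARS2 had no entry. The matches, in capitals, stand in these stretches of GRCh38.p14, each on the gene's own strand.

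AARS, minus strand, chr16:70289671-70289708: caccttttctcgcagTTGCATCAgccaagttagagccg

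GARS, plus strand, chr7:30594830-30594867: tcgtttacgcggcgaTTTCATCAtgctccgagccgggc

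IARS, minus strand, chr9:92293698-92293725: cgcattttcagcgcgTTGCATCAcctcc

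YARS2, minus strand, chr12:32756072-32756109: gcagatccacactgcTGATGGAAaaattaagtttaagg

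In AARS, GARS and IARS the match reads in the reverse direction. It lies 187 to 180 bases before the start in AARS, 33 to 26 in GARS, 13 to 6 in IARS and 197 to 190 in YARS2. A match is a string of letters, and binding was not measured.

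Cytosolic synthetase mRNAs ranked near the top of the table under every treatment. Their median percentile was 95.6 under UV, 96.4 under heat shock, 95.9 under HGF and 96.7 under IFNg, and 18, 17, 15 and 17 of the 20 genes stood at percentile 90 or above. Mitochondrial synthetase mRNAs ranked lower, with medians of 81.7 under UV, 79.9 under heat shock, 81.0 under HGF and 79.4 under IFNg, and 3, 4, 3 and 2 of 16 at percentile 90 or above. The rank of a mitochondrial gene also varied more between treatments. The difference between a gene's highest and lowest percentile had a median of 4.08 points over the cytosolic genes and 12.03 over the mitochondrial genes, against 12.9 over the 12624 gene models that reached percentile 60 in at least 1 treatment. Points near the top of a rank scale have less room to spread, which bears on this comparison of ranges. PARS2, the mitochondrial prolyl enzyme, was the sole member of the 36 that did not reach percentile 60.

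**Figure D1:**
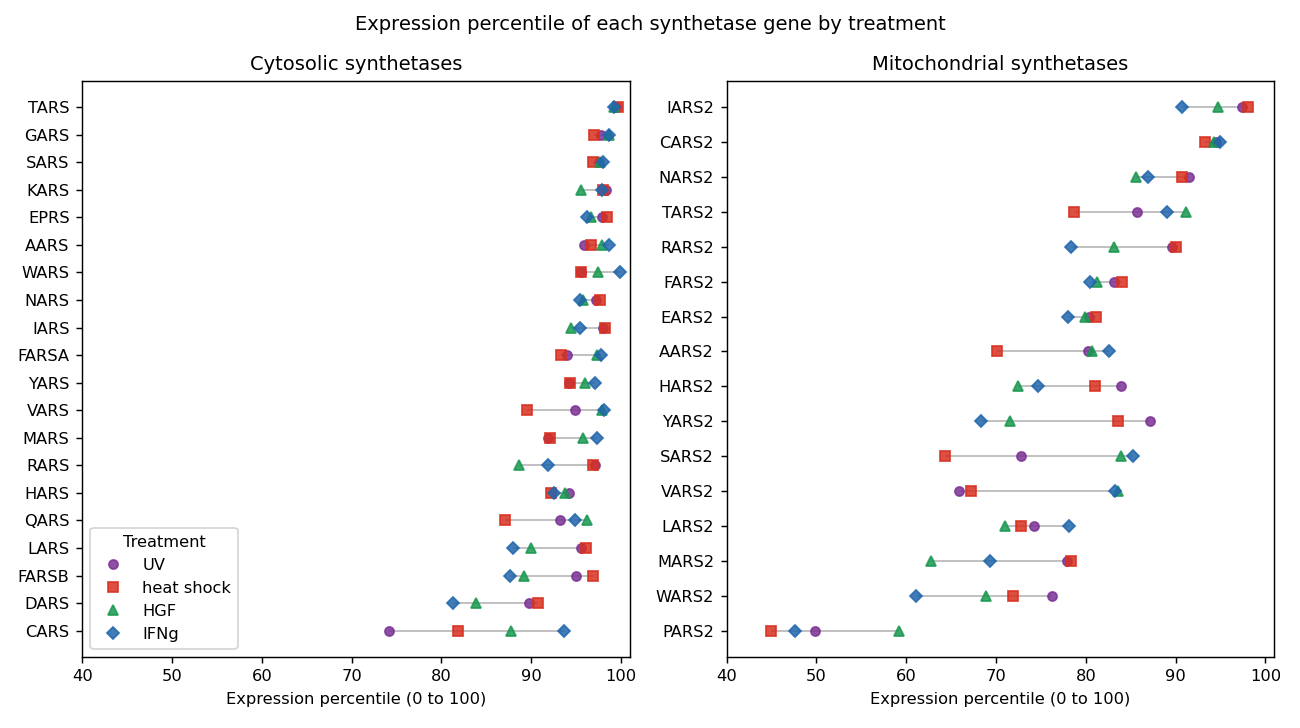
Expression percentile (horizontal axis, 0 to 100) of each synthetase gene under UV, heat shock, HGF and IFNg, with cytosolic genes on the left and mitochondrial genes on the right, ordered by their mean. Each symbol is 1 treatment and the grey line spans the 4 values of a gene; most cytosolic genes sit above percentile 90, while the mitochondrial genes spread from PARS2 at 45.0 to IARS2 at 98.1.

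No gene of the cytosolic group was set apart by 10 percentile points or more from all 3 other treatments, in either direction. Among the mitochondrial genes AARS2, the alanyl enzyme, was the sole one. It stood at 80.3 under UV, 70.1 under heat shock, 80.7 under HGF and 82.5 under IFNg, so the heat shock value lay 10.2 points below the nearest of the others. That makes 1 of 36 members below all others under heat shock, where 3.98% of gene models past percentile 60 were. After UV, 0 of 36 were above and 0 below, beside 1.93% and 2.17% of those models. The counts were 0 above under heat shock beside 2.87%, 0 and 0 under HGF beside 1.57% and 1.39%, and 0 and 0 under IFNg beside 3.39% and 3.02%. A gene above percentile 90 in another treatment cannot stand 10 points above it. For most cytosolic genes a call above was thus fixed in advance at none, whereas the background models had a median percentile of 75.6. These counts above therefore do not show stable expression. The AARS2 call did not hold once percentiles were corrected for transcript GC content, where its heat shock value lay between those of the other treatments.

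Counted by place from the top of the table, WARS made the largest step of the 36 genes under IFNg. It lies at chr14:99869878-99912433 on the minus strand, in the coordinates of the deposited table, whose genome build the sources used here do not name. Its percentile was 95.6 under UV, 95.5 under heat shock, 97.5 under HGF and 99.95 under IFNg. Counted from the top of 25918 models, it stood at place 1150 under UV, 1167 under heat shock, 651 under HGF and 13 under IFNg. The percentile scale compresses this step to 2.46 points beyond HGF. On the log2 scale of the place from the top it was 5.65 beyond the nearest other treatment. Of gene models past percentile 60, 2.29% stood at least 2-fold higher in place under IFNg than under all 3 others, and WARS was the sole synthetase gene among them. Its shift from the median of the other 3 treatments was 4.39 percentile points, and 0.51 with GC correction, which subtracts the median percentile of gene models of like GC content in each treatment. Models past percentile 60 centre on percentile 75.6, so the points subtracted can exceed the room of a gene near the top. TARS ranged over 0.43 points, yet its corrected shifts were -4.56, -4.29, 4.29 and 5.42 under UV, heat shock, HGF and IFNg. How much of the WARS step goes with GC content is thus not shown, and the same limit applies to other top-ranked genes below.

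By the same measure of place, 2 further genes stood apart. VARS, the valyl enzyme, held place 2720 under heat shock, against 1339 under UV, 537 under HGF and 498 under IFNg, and 1.05% of models were at least 2-fold lower under heat shock. KARS, the lysyl enzyme, held place 1165 under HGF, against 426 under UV, 519 under heat shock and 536 under IFNg, and 0.349% of models were at least 2-fold lower under HGF. Neither step held in GC-corrected percentiles. The heat shock shift of VARS from the median of the other 3 treatments was 6.09 points with the correction and -8.42 without it. The HGF shift of KARS was 0.096 points with the correction and -2.49 without it. No member was 2-fold higher or lower under UV, higher under heat shock, higher under HGF or lower under IFNg, where 0.554%, 0.238%, 0.808%, 0.602% and 0.776% of models were.

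Within the cytosolic group, TARS, the threonyl enzyme, ranked highest under UV, heat shock and HGF. Its percentiles were 99.4, 99.6, 99.2 and 99.2 under UV, heat shock, HGF and IFNg, and its place from the top was 156, 92, 197 and 203. The lowest cytosolic gene was CARS, the cysteinyl enzyme, under UV and heat shock, and DARS, the aspartyl enzyme, under HGF and IFNg. CARS had the widest range of the group, 19.5 points, with percentiles of 74.2 under UV, 81.9 under heat shock, 87.7 under HGF and 93.7 under IFNg. DARS ran the other way, with 89.8 under UV, 90.8 under heat shock, 83.8 under HGF and 81.3 under IFNg.

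The subunits of the multisynthetase complex did not share 1 pattern. In 6 of the 8 subunit genes both the UV and the heat shock percentile exceeded both the HGF and the IFNg percentile, and in 2 (MARS and QARS) the reverse held. Among the 12 cytosolic genes outside the complex the counts were 3 and 8, and over all gene models past percentile 60 the shares were 36.3% and 30.9%. The subunits' median shift from the other treatments was 1.91 points under UV, 2.31 under heat shock, -3.02 under HGF and -2.11 under IFNg. With GC correction it was 0.63, -1.64, 0.90 and -0.12 points, so the split between these treatment pairs was not kept. RARS, the arginyl subunit, stood at 97.1, 96.9, 88.7 and 91.9 under UV, heat shock, HGF and IFNg. LARS, the leucyl subunit, stood at 95.6, 96.1, 89.99 and 88.0. MARS, the methionyl subunit, stood at 91.9, 92.1, 95.8 and 97.4, and QARS, the glutaminyl subunit, at 93.2, 87.1, 96.2 and 94.9. IARS, the isoleucyl subunit, stood at 98.0, 98.2, 94.5 and 95.4. EPRS, which joins the glutamyl and prolyl activities in 1 protein, varied least among the subunits, over 2.26 points.

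The subunits of phenylalanyl-tRNA synthetase, FARSA and FARSB, form 1 enzyme, yet their ranks went in opposite directions. FARSA stood at 94.0 under UV, 93.3 under heat shock, 97.4 under HGF and 97.8 under IFNg. FARSB stood at 95.01, 96.9, 89.2 and 87.7 in the same order. The GC content of their transcripts was 60.3% for FARSA and 41.6% for FARSB. With GC correction the shifts of FARSA from the median of the other treatments were 6.57 points under UV, 8.75 under heat shock, -6.57 under HGF and -7.65 under IFNg, so each turned its sign, and those of FARSB were 0.93, -0.93, 1.23 and -1.73. The corrected signs of the pair thus matched under UV and IFNg and still differed under heat shock and HGF. The corrected shifts of FARSA exceeded its uncorrected range of 4.54 points, so the limit given for WARS applies. These signs do not settle how the pair moved apart from GC content. This pair was chosen after its values were seen.

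Across the 20 cytosolic genes, 9 had their highest percentile under IFNg (AARS, CARS, FARSA, GARS, MARS, SARS, VARS, WARS and YARS), 7 under heat shock, 3 under UV and 1 under HGF. The GC content of those 9 transcripts ran between 48.6% and 62.6%, and GC correction changed which genes these were. Among coding models past percentile 60 the shares with the highest value were 25.9% under IFNg, 33.1% under heat shock, 20.1% under UV and 21.0% under HGF. With GC correction 7 cytosolic genes were highest under IFNg, where 22.5% of coding models were, and of the 9 named above CARS and WARS alone were among them, by 4.32 and 0.096 points beyond the nearest other treatment. The corrected IFNg shift from the median of the other 3 was negative for AARS, FARSA, MARS, SARS, VARS and YARS, between -8.09 and -0.54 points. In uncorrected percentiles AARS, the alanyl enzyme, stood at 95.9, 96.6, 97.9 and 98.6 under UV, heat shock, HGF and IFNg. GARS, the glycyl enzyme, stood at 97.8, 97.0, 98.6 and 98.7, and SARS, the seryl enzyme, at 97.5, 96.9, 97.7 and 98.0. Relative to the median of the other 3 treatments, the cytosolic median shift was 0.0077 points under UV, -1.02 under heat shock, 0.51 under HGF and 0.22 under IFNg. NARS, the asparaginyl enzyme, and YARS, the tyrosyl enzyme, stayed within 2.15 and 2.89 points over the 4 treatments. All gene models past percentile 60 had median shifts of 0.24, 0.45, -0.24 and -0.18 points.

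The mitochondrial genes fell into larger opposite movements. VARS2, the valyl enzyme, stood at 65.9 under UV and 67.2 under heat shock, and at 83.6 under HGF and 83.2 under IFNg. SARS2, the seryl enzyme, had the widest range of all members, 21.0 points, with 72.7, 64.3, 83.9 and 85.3 under UV, heat shock, HGF and IFNg. YARS2, the tyrosyl enzyme, ran the other way, with 87.2, 83.6, 71.5 and 68.4, and so did MARS2, the methionyl enzyme, with 77.9, 78.4, 62.7 and 69.3. WARS2, the tryptophan enzyme of mitochondria, stood lowest under IFNg, at 61.1, against 76.2 under UV, 71.9 under heat shock and 68.9 under HGF, unlike its cytosolic counterpart WARS. With GC correction the movements of YARS2 and MARS2 kept their directions, with shifts from the median of the other treatments of 12.2, 9.93, -9.93 and -15.0 points for YARS2 and 6.89, 7.69, -13.1 and -6.89 for MARS2. Those of VARS2 became -6.61, -2.18, 3.85 and 2.18, and those of SARS2 -1.30, -6.54, 1.49 and 1.30. The IFNg value of WARS2 lay beyond the nearest other treatment by -7.77 points without the correction and -0.67 with it. The highest mitochondrial genes were IARS2, the isoleucyl enzyme, at 97.4, 98.1, 94.7 and 90.7, and CARS2, the cysteinyl enzyme, at 94.6, 93.3, 94.3 and 94.9, which was the highest of the group under IFNg. LARS2, the leucyl enzyme, stood at 74.3, 72.8, 71.0 and 78.1, EARS2, the glutamyl enzyme, at 80.4, 81.1, 79.9 and 78.0, and FARS2, the phenylalanyl enzyme, at 83.1, 84.1, 81.3 and 80.5. PARS2 was the lowest under each treatment, at 49.9, 45.0, 59.2 and 47.7. NARS2, the asparaginyl enzyme, stood at 91.5, 90.7, 85.5 and 87.0, and TARS2, the threonyl enzyme, at 85.7, 78.7, 91.1 and 89.0. In 9 of 16 mitochondrial genes both UV and heat shock exceeded both HGF and IFNg, and in 4 the reverse held. The shares with these directions over the 12624 gene models described above were 36.3% and 30.9%.

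These directions ran with the base composition of the transcripts. The mean percentile of UV and heat shock minus the mean of HGF and IFNg had a Spearman correlation with transcript GC content of -0.92 over the 20 cytosolic genes, -0.85 over the 16 mitochondrial genes and -0.72 over the gene models past percentile 60 with a GC value. The points are genes that share the same 4 treatments' libraries, so these values are descriptions. The complex subunits had a median GC content of 43.4%, the other cytosolic genes 51.6% and the mitochondrial genes 51.2%. VARS2 and SARS2, higher under HGF and IFNg, had 59.3% and 61.2%, while DARS and RARS, higher under UV and heat shock, had 41.2% and 41.4%. With 1 library of each kind per treatment, base composition in library making and treatment cannot be told apart.

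**Figure D2:**
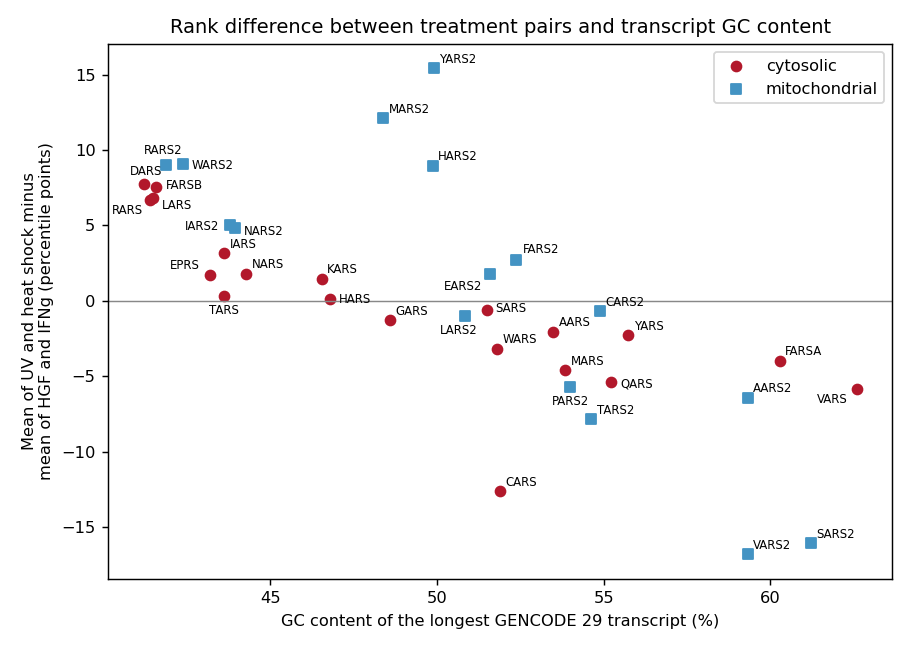
Mean percentile under UV and heat shock minus the mean under HGF and IFNg (vertical axis, percentile points) against the GC content of the longest GENCODE 29 transcript (horizontal axis, %), 1 point per gene, circles for cytosolic and squares for mitochondrial genes. Genes of low GC content such as DARS (41.2%, 7.74 points) lie at the upper left and genes of high GC content such as SARS2 (61.2%, -16.1 points) at the lower right, while YARS2, the highest point at 15.4, and CARS lie off the band.

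HARS and HARS2, the histidyl enzymes of the cytosol and of mitochondria, are neighbours transcribed away from each other. In the deposited coordinates HARS lies at chr5:140033674-140051155 on the minus strand and HARS2 at chr5:140051202-140059074 on the plus strand, 46 nt apart. In GRCh38.p14 the stretch between their RefSeq starts holds 84 bases with a GC content of 59.5%, printed on the plus strand to show how short the interval between the genes is.

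HARS to HARS2, chr5:140691371-140691454: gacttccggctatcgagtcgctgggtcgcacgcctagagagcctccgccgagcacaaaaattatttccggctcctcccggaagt

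The ranks of the pair differed in level and in spread. HARS stood at 94.2, 92.3, 93.8 and 92.5 under UV, heat shock, HGF and IFNg, and HARS2 at 84.0, 81.1, 72.5 and 74.7. Thus HARS varied over 1.94 points and HARS2 over 11.5.

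The genes around charging were read for the same pattern. Of the complex scaffold, EEF1E1, SCYE1 and JTV1 (older symbols of the last 2 genes, whose products are called AIMP1 and AIMP2) were found, and 0 of 3 stood 10 points apart after any treatment. SCYE1 nevertheless had a wide split, with 93.8 under UV and 94.6 under heat shock, and 75.3 under HGF and 72.1 under IFNg. Among 7 genes that deliver charged tRNA to the ribosome, EEF1A2, an elongation factor isoform, was the sole one apart, at 73.4 under heat shock, against 88.1 under UV, 97.3 under HGF and 97.3 under IFNg. Among 4 genes of mitochondrial charging accessories, GATC, a subunit of the glutamine amidotransferase that completes mitochondrial Gln-tRNA, stood at 58.6 under HGF, against 77.9 under UV, 70.4 under heat shock and 78.8 under IFNg. MTFMT, which formylates the initiator Met-tRNA of mitochondria, stood at 53.1 under IFNg, against 63.9, 66.9 and 64.8 under UV, heat shock and HGF. Of 5 genes of the selenocysteine path, PSTK, the kinase of seryl-tRNA, stood at 70.9 under heat shock, against 52.3 under UV, 44.5 under HGF and 35.6 under IFNg. EEFSEC, the selenocysteine elongation factor, stood at 50.7 under heat shock, against 77.7 under UV, 81.4 under HGF and 81.4 under IFNg. With GC correction EEF1A2, GATC and MTFMT no longer stood 10 points apart, while PSTK and EEFSEC did, and SEPSECS, the enzyme that makes selenocysteinyl-tRNA, then lay beyond all others under heat shock by -10.1 points. The shares of models past percentile 60 that stood apart were 3.98% below and 2.87% above under heat shock, 1.39% below under HGF and 3.02% below under IFNg.

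For ATF4 and its targets of the amino acid response, the median percentile was highest under IFNg. It stood at 83.5 under UV, 84.1 under heat shock, 87.1 under HGF and 96.5 under IFNg. The gene list was chosen with earlier results of these data known, so its share of genes apart is a description. Of its 21 genes, 6 stood at least 10 points above all 3 other treatments under IFNg, a share to be read beside 3.39% of models past percentile 60. They were the stress transcription factor DDIT3, the pseudokinase TRIB3, the glutathione-degrading enzyme CHAC1, the amino acid transporter SLC1A4, the leucine sensor SESN2 and the lipoprotein receptor VLDLR. SESN2 stood at 94.3 under IFNg, against 55.5 under UV, 40.6 under heat shock and 71.9 under HGF. CHAC1 stood at 97.9 under IFNg, against 59.3, 42.4 and 80.8, and it also lay at least 10 points below all others under heat shock. TRIB3 stood at 96.5 under IFNg, against 71.7, 74.8 and 83.5. SLC1A4 stood at 86.3 under IFNg, against 59.3, 67.6 and 74.8, and VLDLR at 74.7, against 61.2, 58.9 and 58.8. DDIT3 stood at 92.7 under IFNg, against 80.3 under UV, 79.1 under heat shock and 60.2 under HGF, where it lay at least 10 points below all others. No gene of the list was 10 points apart under UV in uncorrected percentiles. With GC correction 1 was, PSPH, which lay beyond all others by -10.5 points, where 1.49% of filtered models with a GC value were below. With GC correction 4 of the 6 stayed apart under IFNg (DDIT3, CHAC1, SESN2 and VLDLR), where 2.04% of filtered models with a GC value were. The list's median shift under IFNg was 7.06 points, set beside 0.22 for the cytosolic and -2.48 for the mitochondrial synthetases. Cytosolic synthetases already stood at medians of 95.6 under UV, 96.4 under heat shock and 95.9 under HGF, which leaves little room to rise in points. Whether they followed the list cannot be read from these shifts. ATF4 itself stood at 94.4, 91.7, 99.2 and 99.2 under UV, heat shock, HGF and IFNg.

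**Figure D3:**
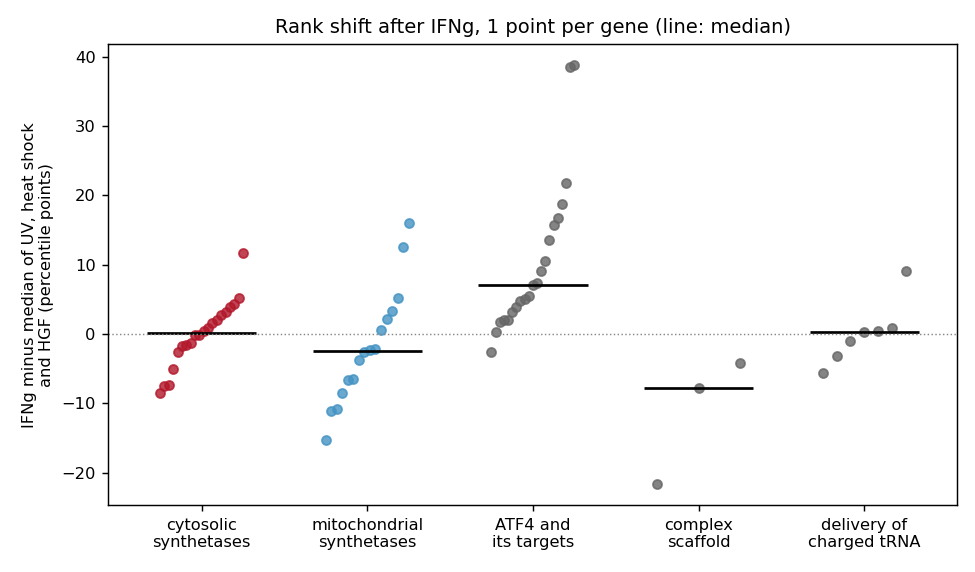
Percentile under IFNg minus the median of UV, heat shock and HGF (vertical axis, percentile points), 1 point per gene, with a black line at the median of each gene group. The ATF4 group has a median of 7.06 points, with SESN2 and CHAC1 highest, while the synthetase groups centre near 0, with medians of 0.22 (cytosolic) and -2.48 (mitochondrial). Most cytosolic synthetases rank near the top of the scale in every treatment and have little room to rise in points.

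The m6A calls are the authors' own peaks, each listed with a position in the transcript, an exon, a transcript segment and an enrichment score. Neither the formula nor the log base of that score is given in the sources used here. The lowest score listed is 2, and scores are also given as a percentile among all peaks of the same treatment. The mark is known to concentrate near stop codons and in long exons. The number of peaks in the whole table differed between treatments, with 13307 under UV, 9803 under heat shock, 9111 under HGF and 5280 under IFNg, and the depth behind them is unknown. Counts of members are therefore read beside the same treatment's background.

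A peak was listed in 30 of the 36 synthetase genes under UV, 26 under heat shock, 19 under HGF and 16 under IFNg, with 48, 41, 30 and 21 peaks. The corresponding shares over gene models past percentile 60 were 54.5%, 43.9%, 42.2% and 27.8%, and over models at percentile 90 or above in the treatment itself 67.9%, 56.5%, 49.1% and 38.2%. Among cytosolic genes the counts were 17, 15, 10 and 7 of 20. Coding gene models with a mean percentile within the cytosolic range, 84.4 to 99.4, had a peak in 71.4%, 59.4%, 53% and 41.2%. Among mitochondrial genes the counts were 13, 11, 9 and 9 of 16, where coding models of their rank range had a peak in 58.5%, 46.7%, 46% and 30%. That range ran from a mean percentile of 50.4, set by PARS2, to 95.2, while the next lowest member, WARS2, stood at 69.5. Its models therefore include some ranked below every other mitochondrial member, and they are not matched to the 16 genes in rank. The exact 95% binomial interval (Clopper-Pearson, counting error only) of the cytosolic share was 62.1 to 96.8% under UV, 50.9 to 91.3% under heat shock, 27.2 to 72.8% under HGF and 15.4 to 59.2% under IFNg. For the mitochondrial share it was 54.4 to 96.0%, 41.3 to 89.0%, 29.9 to 80.2% and 29.9 to 80.2%. The genes of a treatment share the same libraries and are not replicates, so the intervals are descriptions. No test against the rank range was made. When peaks of score 3 or more alone were counted, 15, 13, 6 and 2 of 20 cytosolic and 13, 9, 8 and 6 of 16 mitochondrial genes had a peak, beside 60.1%, 47.7%, 34% and 21.9%, and 51.8%, 38.8%, 34.4% and 18.7%, of coding models in their rank ranges. By fold family, a peak was listed in 14, 12, 10 and 7 of 19 class I genes and in 16, 14, 9 and 9 of 17 class II genes, in the order of treatments above.

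**Figure D4:**
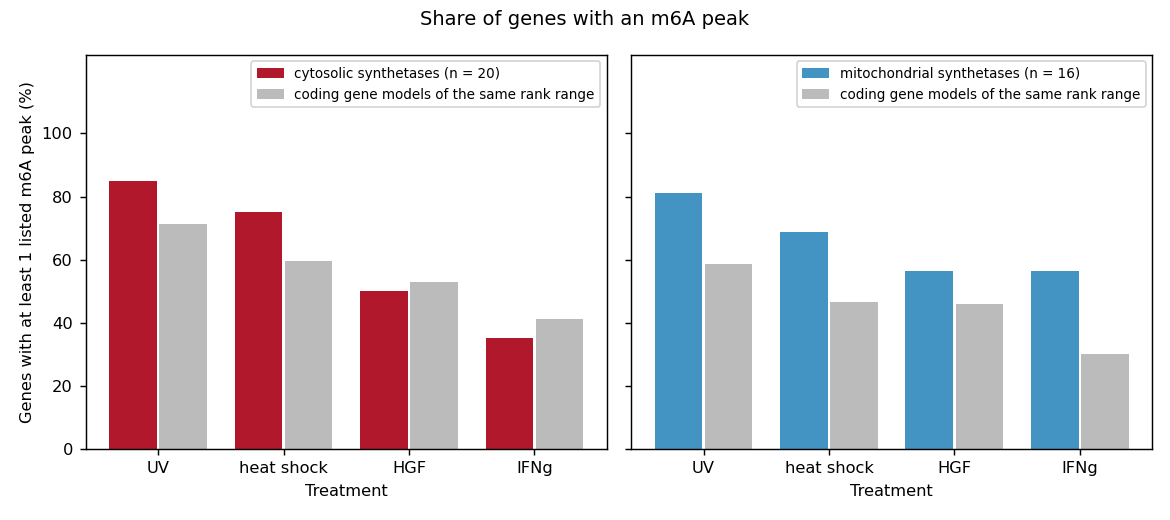
Share of genes with at least 1 listed m6A peak (vertical axis, %) under UV, heat shock, HGF and IFNg, for synthetase genes (coloured bars, cytosolic on the left and mitochondrial on the right) and coding gene models of the same range of mean percentile (grey bars). The cytosolic bars stand for 17, 15, 10 and 7 of 20 genes and the mitochondrial bars for 13, 11, 9 and 9 of 16, and both the coloured and the grey bars are lower under IFNg than under UV.

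A peak was present under all 4 treatments in 5 of 20 cytosolic genes (AARS, GARS, HARS, LARS and SARS) and in 8 of 16 mitochondrial genes (AARS2, EARS2, FARS2, HARS2, LARS2, MARS2, PARS2 and WARS2). The background shares were 22.4% for gene models past percentile 60, 31.5% for coding models in the cytosolic rank range and 24.6% for those in the mitochondrial range. No peak was listed in any treatment for FARSB, QARS, CARS2 and RARS2, which are 2 of 20 cytosolic and 2 of 16 mitochondrial genes, beside 20.8% and 35.9% of coding models in the same rank ranges and 39.8% of models past percentile 60. The percentiles of 3 of these genes are given above, and RARS2, the mitochondrial arginyl enzyme, stood at 89.5, 90.05, 83.1 and 78.4 under UV, heat shock, HGF and IFNg.

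Peaks of 1 gene within 100 nt of each other were joined, which gave 65 sites in 32 genes. A site was listed under all 4 treatments in 3 of 37 cases for cytosolic genes (8.11%) and in 8 of 28 for mitochondrial genes (28.6%), beside 16.4% and 17.6% of sites in coding models of the same rank ranges. All 3 cytosolic sites lay around the stop codon, in AARS, GARS and HARS. Peaks around the stop codon made up 29.6%, 39.1%, 64.3% and 44.4% of cytosolic peaks under UV, heat shock, HGF and IFNg. In coding models of the cytosolic rank range they made up 25.4%, 25.4%, 28.4% and 26.7%. Their share among sites listed under all 4 treatments was not taken for those models. The site of AARS spanned nt 3116 to 3128 in its exon 21, with scores of 6.96, 5.52, 5.66 and 3.64 under UV, heat shock, HGF and IFNg, at score percentiles of 96.7, 91.0, 94.4 and 72.4. The site of HARS, nt 1606 to 1648, had scores of 4.89, 5.50, 3.19 and 3.00, and that of GARS, nt 2516 to 2552, had 4.57, 2.97, 2.54 and 2.11. With peaks of score 3 or more alone, 1 cytosolic and 5 mitochondrial sites were listed under all 4 treatments, beside 12.1% and 12.6% of such sites in the rank ranges. None of the 11 sites of complex subunits was listed under all 4 treatments.

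Of the 8 mitochondrial sites listed under every treatment, 5 lay around the stop codon (AARS2, EARS2, HARS2, PARS2 and WARS2), 2 in the 3′ UTR (EARS2 and LARS2) and 1 in coding sequence (FARS2). Peaks around the stop codon made up 42.9%, 44.4%, 43.75% and 50% of mitochondrial peaks under UV, heat shock, HGF and IFNg. In coding models of the mitochondrial rank range they made up 27.4%, 27.8%, 29.1% and 29.3%. The stop codon site of HARS2, nt 1920 to 1928, had scores of 7.38, 4.81, 5.53 and 5.30 under UV, heat shock, HGF and IFNg, at score percentiles of 98.2, 78.8, 93.5 and 97.3. The 3′ UTR site of EARS2, nt 2367 to 2415, had scores of 4.64, 4.19, 5.68 and 5.95, and its score percentile was 99.4 under IFNg. The 3′ UTR site of LARS2, nt 3343 to 3366, had scores of 6.49, 4.89, 6.03 and 4.13. FARS2 had its single site at nt 720 to 733 inside exon 2, which is 633 nt long, with scores of 6.40, 4.57, 4.85 and 3.35. PARS2 had 3 sites in its exon 2 of 2293 nt, all of them listed under UV and HGF, 2 under heat shock and 1 under IFNg, and the one listed under all treatments had scores of 3.72, 3.74, 2.30 and 2.52.

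**Figure D5:**
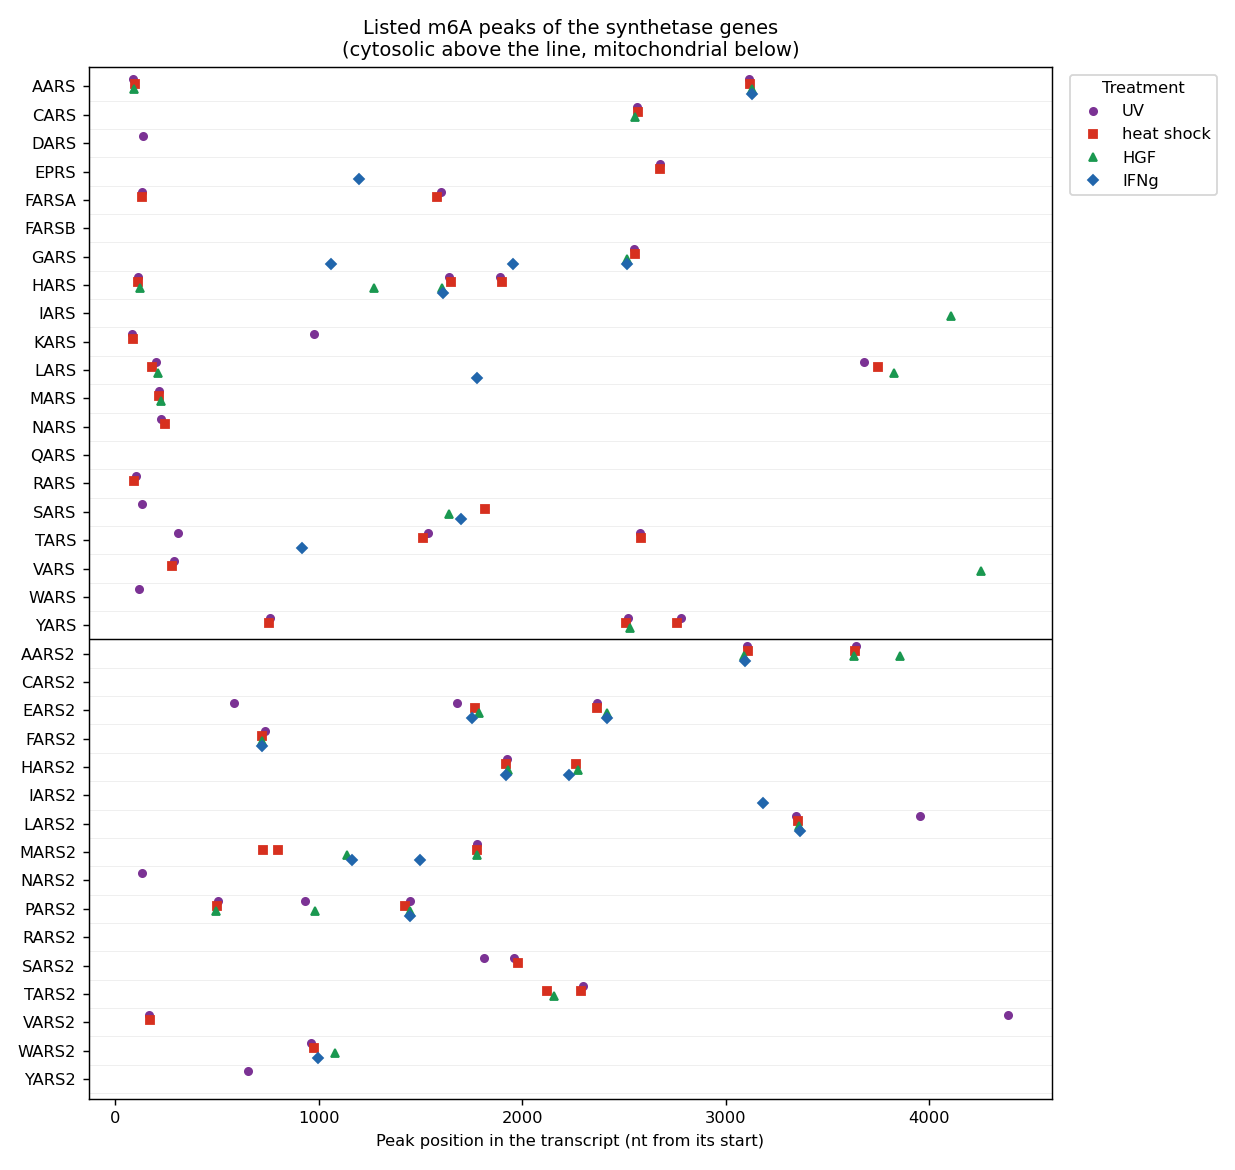
Position of every listed m6A peak in the 36 synthetase transcripts (horizontal axis, nt from the transcript start), 1 row per gene, cytosolic above the line and mitochondrial below, with 1 symbol and colour per treatment. Columns of stacked symbols are sites shared between treatments, such as AARS near nt 3116 and HARS2 near nt 1920; the cluster near the transcript starts is mostly cytosolic and lacks IFNg symbols.

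Peaks labelled as lying at the transcript start were unevenly spread over the treatments in the cytosolic genes. They were listed in 9 of 20 cytosolic genes under UV (AARS, DARS, FARSA, HARS, KARS, LARS, RARS, SARS and WARS), 6 under heat shock (AARS, FARSA, HARS, KARS, LARS and RARS), 2 under HGF (AARS and HARS) and 0 under IFNg. Coding models of the cytosolic rank range had such a peak in 23.8%, 17.6%, 6.17% and 1.16%. As a share of peaks they made up 33.3%, 26.1%, 14.3% and 0% of the cytosolic peaks, beside 17.1%, 15.8%, 6.58% and 1.77% of the peaks in those models. In the mitochondrial genes they were listed in NARS2 and VARS2 under UV, in VARS2 under heat shock and in 0 of 16 under HGF and under IFNg, beside 8.49%, 5%, 2.53% and 0.416%. The background shares decline in the same order, from UV to IFNg. At the transcript start an m6A peak cannot be told apart from a peak of the cap-adjacent dimethylated adenosine, which anti-m6A antibodies are known to bind.

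The strongest start peak by score was that of RARS, at nt 100 under UV with a score of 6.06 and at nt 90 under heat shock with 5.50. LARS had 6.02 under UV and 5.67 under heat shock, and 3.25 under HGF, where its position at nt 210 was labelled 5′ UTR. The start peak of AARS, at nt 85 to 96, had 4.14, 3.81 and 4.17 under UV, heat shock and HGF. HARS had the weakest that recurred, with 2.58, 2.40 and 2.01. WARS had 1 peak in all, at nt 116 under UV, with a score of 2.69, and none under IFNg, when its rank was highest.

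Mitochondrial peaks lay in longer exons than cytosolic ones. The median length of the exon that held a peak was 1486, 1986, 2065 and 2065 nt in mitochondrial genes under UV, heat shock, HGF and IFNg, beside 1493, 1563, 1657 and 1722 nt in coding models of their rank range. In cytosolic genes it was 298, 360, 309 and 193 nt, beside 950, 1064, 1264 and 1277 nt. Several peaks can share an exon, as in MARS2, whose single exon of 3028 nt held all 8 of its listed peaks. MARS2 and the cytosolic genes HARS and TARS had the most sites, with 4 each. TARS, at the top of the expression ranks, had 3 peaks under UV, 2 under heat shock, 0 under HGF and 1 under IFNg, and none of its sites was listed in more than 2 treatments.

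Score percentiles differed between the classes under IFNg. The median score percentile of cytosolic peaks was 61.9 under UV, 55.6 under heat shock, 38.9 under HGF and 15.1 under IFNg, while peaks of coding models in their rank range were at 44.5, 46.6, 41.4 and 41.9. For mitochondrial peaks it was 63.0, 57.5, 59.999 and 72.1, beside 50.9, 51.0, 51.3 and 51.9. After IFNg the cytosolic median rests on 9 peaks and the mitochondrial one on 12. Of those 9, 5 lay in coding sequence, in EPRS, GARS, LARS and TARS, with scores between 2.05 and 2.68, and none of these 5 positions was listed under another treatment.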

How the data were processed

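The deposited table gives, for each treatment and gene model, an expression quantile, which is a fraction from 0 to 1 per the file headers, and the authors' peaks with positions, segments and a score per the file headers. Aligner, peak caller, build and score formula are not given in the sources used here. Quantiles were printed as percentiles. For differences, values were raised to the highest of the 4 lowest ranks (45.5, under UV). A gene model passed the low-value filter at percentile 60 in any treatment, and 12624 models, with 35 of 36 members, did. A treatment was apart at 10 points or more from all 3 others. Peaks within 100 nt were joined into sites. GC content came from the longest GENCODE 29 transcript of the symbol, matched for 88.4% of filtered models. The GC correction subtracted the median of 40 GC bins, taken over filtered models. These points can exceed the room of a gene near the top of the scale. Promoters came from RefSeq (GRCh38.p14).

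The members, gene lists and motifs were chosen with earlier results of these data known. Members were named when apart, highest or lowest in their class, without a peak, with a peak under every treatment or with the most sites, and WARS always. Others named were chosen after their values were seen. The calculations were tested on simulated data, and were run with SciPy 1.17.1, NumPy 2.4.6 and pandas 2.3.3 under Python 3.11.15, with figures by matplotlib 3.10.9.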

Additional observations from a re-analysis of the deposited data

How the results depend on the processing

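No value here has a replicate or a depth behind it, and ranks cannot show a change in amount. No paired analysis was possible because every group holds 1 library and no result comes from a test. Each symbol has 1 row, so taking the longest gene model or any model gave identical values. Quantiles as deposited left the members' counts and medians within the tolerance used (1.5 times for a count), while the medians over filtered models became 0.52 under UV, 0.50 under heat shock, -0.57 under HGF and -0.53 under IFNg. Joining peaks within 50 nt gave 40 cytosolic sites with 3 under all 4 treatments and 31 mitochondrial sites with 6, and within 200 nt 36 and 26 sites, with 8 mitochondrial sites under all 4; these counts too lie within 1.5 times. The counts of members apart did move. Against the median of the other 3 treatments, 1 member was above and 3 below under UV, 1 and 4 under heat shock, 3 and 2 under HGF and 3 and 3 under IFNg, beside 10.9% and 13.2%, 15% and 17%, 13% and 10.9%, and 15.4% and 15.4% of filtered models. With 5 points in place of 10, 1 was below under UV, 5 below under heat shock, 1 above and 1 below under HGF, and 1 above and 1 below under IFNg, beside 5.47%, 11%, 4.96% and 5.37%, and 8.18% and 11%. Re-ranking among models above the lowest rank in all 4 treatments gave these same counts, beside 3.72%, 8.46%, 3.04% and 4%, and 5.69% and 7.79%. With GC correction 0 were below under heat shock, beside 1.47% of filtered models with a GC value. By a 2-fold difference in place from the top, 1 was below under heat shock (VARS, in place of AARS2). By that rule 1 was also below under HGF and 1 above under IFNg. The shares of filtered models were 1.05%, 0.349% and 2.29%. GC correction turned the cytosolic median shift to -0.33 points under UV and -0.68 under IFNg, while the median over all filtered models under IFNg became -0.63. Re-ranking made the cytosolic shift under heat shock -2.02. The mitochondrial median shift under IFNg became -4.56 with GC correction and -4.53 re-ranked, and that under heat shock 0.28 and 3.77. With peaks of score 3 or more, 15, 13, 6 and 2 cytosolic and 13, 9, 8 and 6 mitochondrial genes had a peak, beside 47.7%, 36%, 30.5% and 16.7% of filtered models, the cytosolic genes had 24 sites with 1 under all 4 treatments, and the mitochondrial genes had 5 under all 4. The cause of these moves was not tested.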
